A study of Mus musculus with 10 samples.

Results

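The genes described here are 34 chaperones, folding enzymes and signalling genes of the endoplasmic reticulum (ER) and its unfolded protein response, out of 25050 genes in a table of brain RNA sequencing counts. They were taken by gene symbol, as the rows of the table that carry the name of a member. The samples were Abcc5 knockout brains (Abcc5-/-, 5 libraries) and wildtype brains (Abcc5+/+, 5 libraries), all whole brains of FVB/NJ mice killed with CO2 and frozen on dry ice. Polyadenylated RNA was sequenced, and the study asked what the transporter ABCC5 carries, with glutamate conjugates among the candidates. Neither the age nor the sex of the animals is given in the sources used here, nor is the way the knockout allele was made. Of the 34 members, 33 had enough counts to be tested and 1, Trib3, did not.

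The ER folds and modifies proteins that enter the secretory pathway, and its lumen holds chaperones, lectins and disulfide-forming enzymes. When unfolded proteins build up, 3 membrane sensors respond. ATF6 is cut to release a transcription factor, IRE1 splices the Xbp1 mRNA so that it encodes an active factor, and PERK phosphorylates a translation initiation factor, which favours translation of ATF4. ATF6 and XBP1 mainly raise chaperones, folding enzymes and degradation factors, while ATF4 raises amino acid metabolism genes and stress regulators such as CHOP. Neurons and glia use the same system for their membrane and secreted proteins. By this division the members were 24 targets of the ATF6/XBP1 type, 7 of the PERK/ATF4 type and the genes of the 3 sensors. The division is a textbook one, and several members can answer to more than 1 branch.

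ATF6 and XBP1 act through the ER stress response element (ERSE), the letters CCAAT and CCACG with 9 bases between them. The elements found in the RefSeq promoter windows of the members are shown because the comparison of the 2 branches turns on genes of this kind. A window runs from 250 bases before to 50 bases after the transcript start, on the mouse build GRCm38.p6, and a RefSeq window was matched for 30 of the 34 members. Atf6, Hyou1, Manf and Sec11c had none. Both strands were searched, each element is written on its own strand from 5′ to 3′, and capitals mark the CCAAT and CCACG letters. Besides the Hsp90b1 element so marked, those of Creld2, Calr and Ero1lb lie on the strand opposite to the gene.
Hspa5: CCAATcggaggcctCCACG
Hsp90b1, strand of the gene: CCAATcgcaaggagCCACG
Hsp90b1, opposite strand: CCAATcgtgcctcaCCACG
Dnajc3: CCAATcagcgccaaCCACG
Creld2: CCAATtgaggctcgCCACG
Calr: CCAATgagggtcgaCCACG
Canx: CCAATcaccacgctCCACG
Pdia6: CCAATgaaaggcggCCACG
Ero1lb: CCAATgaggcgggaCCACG
Syvn1: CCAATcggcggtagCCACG

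These 9 genes were 42.9% of the 21 ATF6/XBP1-type members with a window, and none of the 7 PERK/ATF4-type members held the element. Over all 27025 genes with a window, 37 held it, or 0.137%. A shorter variant, ERSE-II (ATTGG and CCACG with 1 base between them), was in the windows of Dnajb11 and Herpud1 and in 0.0444% of all genes. The core of the element that XBP1 binds, TGACGTGG, whose reverse strand shares the CCACG letters with ERSE, was in the window of no member and in 0.714% of all genes. The amino acid response core that ATF4 binds, TGATGNAA with N for any base, was in the windows of Trib3, Chac1, Asns and Herpud1 and in 4.51% of all genes. A match describes letters and does not show that a factor binds there.

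The whole windows of Hspa5 and Dnajc3 are given because these 2 genes both held an ERSE and fell in the knockout. The window of Hspa5 is chr2:34771840-34772139 on the forward strand, and its element lies at bases -65 to -47 from the start.
Hspa5 window: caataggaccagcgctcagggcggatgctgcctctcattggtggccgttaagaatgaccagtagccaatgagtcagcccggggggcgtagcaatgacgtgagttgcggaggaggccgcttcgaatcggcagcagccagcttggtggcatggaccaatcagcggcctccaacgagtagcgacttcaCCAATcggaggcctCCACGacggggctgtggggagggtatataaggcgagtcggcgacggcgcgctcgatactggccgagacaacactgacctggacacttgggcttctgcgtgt

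The window of Dnajc3 is chr14:118937682-118937981 on the forward strand, and its element lies at bases -105 to -87 from the start.
Dnajc3 window: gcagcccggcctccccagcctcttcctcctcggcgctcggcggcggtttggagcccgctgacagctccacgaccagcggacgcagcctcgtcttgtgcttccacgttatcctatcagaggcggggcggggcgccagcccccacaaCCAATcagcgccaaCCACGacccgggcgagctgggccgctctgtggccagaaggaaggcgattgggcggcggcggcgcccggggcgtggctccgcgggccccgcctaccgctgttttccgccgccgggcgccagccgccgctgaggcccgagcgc

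Total counts ran from 7731294 to 23588335 per library. Knockout replicates 2 and 4 and wildtype replicate 1 had at least 19795743 counts and the other 7 at most 11479995. Levels are CPM, the counts of a gene relative to the scaled total of its library. Abcc5 itself averaged 218.8 ± 5.95 CPM in knockout and 311.1 ± 12.6 CPM in wildtype brains (SD, n = 5 each), with no overlap, and which exons the remaining reads in knockout cover is not known from a count per gene. The first principal component held 33.02% of the variance and separated knockout replicate 3 from the rest, and the level of 12 cerebellar marker genes in that library summed to 309.9 CPM, against at least 1683 CPM in the other knockout libraries and 1631 to 1745 CPM in wildtype. In the same units, 8 microglial marker genes summed to 213.5 to 257.1 CPM in knockout and 179.8 to 198.3 CPM in wildtype brains, with 2 of 8 called higher, against 0.213% of all tested genes, 5 of 8 higher at an unadjusted p under 0.05, against 6.74%, and 4 of 8 higher without overlap, against 1.54%. Those of meninges and fibroblasts summed to 159.0 to 218.4 CPM in knockout and 204.9 to 239.6 CPM in wildtype brains. None of these 8 was called, against 1.18% of all tested genes, and the groups overlapped for each. At an unadjusted p under 0.05, 3 of 8 were lower, or 37.5%, against 8.03% of all tested genes. A log2 fold change below 0 was found in 7 of 8, against 48.4%, with a median of -0.21. Sums of the marker lists for neurons, astrocytes, oligodendrocytes, endothelial cells and choroid plexus overlapped between the groups, and no marker in any list was at 0. The cerebellar markers moved with 1 library, and those of microglia and, in part, of meninges and fibroblasts moved with genotype. A fit without knockout replicate 3 is given below. Beyond that fit, the part of these markers in the results below was not tested. In whole-tissue RNA, fewer cells of a type and less RNA per cell cannot be told apart.

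The main comparison asked which of these genes differed between knockout and wildtype brains. Several chaperone targets of the ATF6/XBP1 type fell in knockout brains, and no PERK/ATF4-type gene passed the test. By edgeR's quasi-likelihood test with Benjamini-Hochberg adjustment over 14526 genes, 5 of the 24 ATF6/XBP1-type members fell at an adjusted p under 0.05 and none rose. They were Hspa5, the main Hsp70 chaperone of the ER, Xbp1, the transcription factor of the IRE1 branch, Manf, a secreted trophic factor, Pdia4, a protein disulfide isomerase, and Dnajc3, a cochaperone that also inhibits PERK. Their levels were between 16.8% and 28.6% lower in knockout. Over all tested genes 0.964% were called lower and 0.213% higher, or 1.18% in either direction.

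Among the ATF6/XBP1-type members 22 of 24 had a log2 fold change below 0, against 48.4% of all tested genes, and the median was -0.17, against 0.0042 over all tested genes. An unadjusted p under 0.05 with a lower level in knockout was reached by 14 of the 24, or 58.3%, against 8.03% of all tested genes. The groups did not overlap in 5 of the 24, or 20.8%, against 2.64% of all tested genes, and none of the 24 was higher without overlap, against 1.54%. Of the 6 tested PERK/ATF4-type members none was called by edgeR, by DESeq2 or by limma-voom, none had an unadjusted p under 0.05, and 3 were below and 3 above 0, with a median of 0.0076. None of the 3 sensor genes was called by any of these tools or had an unadjusted p under 0.05, and their median was -0.063. The difference between the branches was not itself tested. The members and lists were chosen with earlier results of these data known, so the shares set against all tested genes describe the lists and test nothing.

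**Figure D1:**
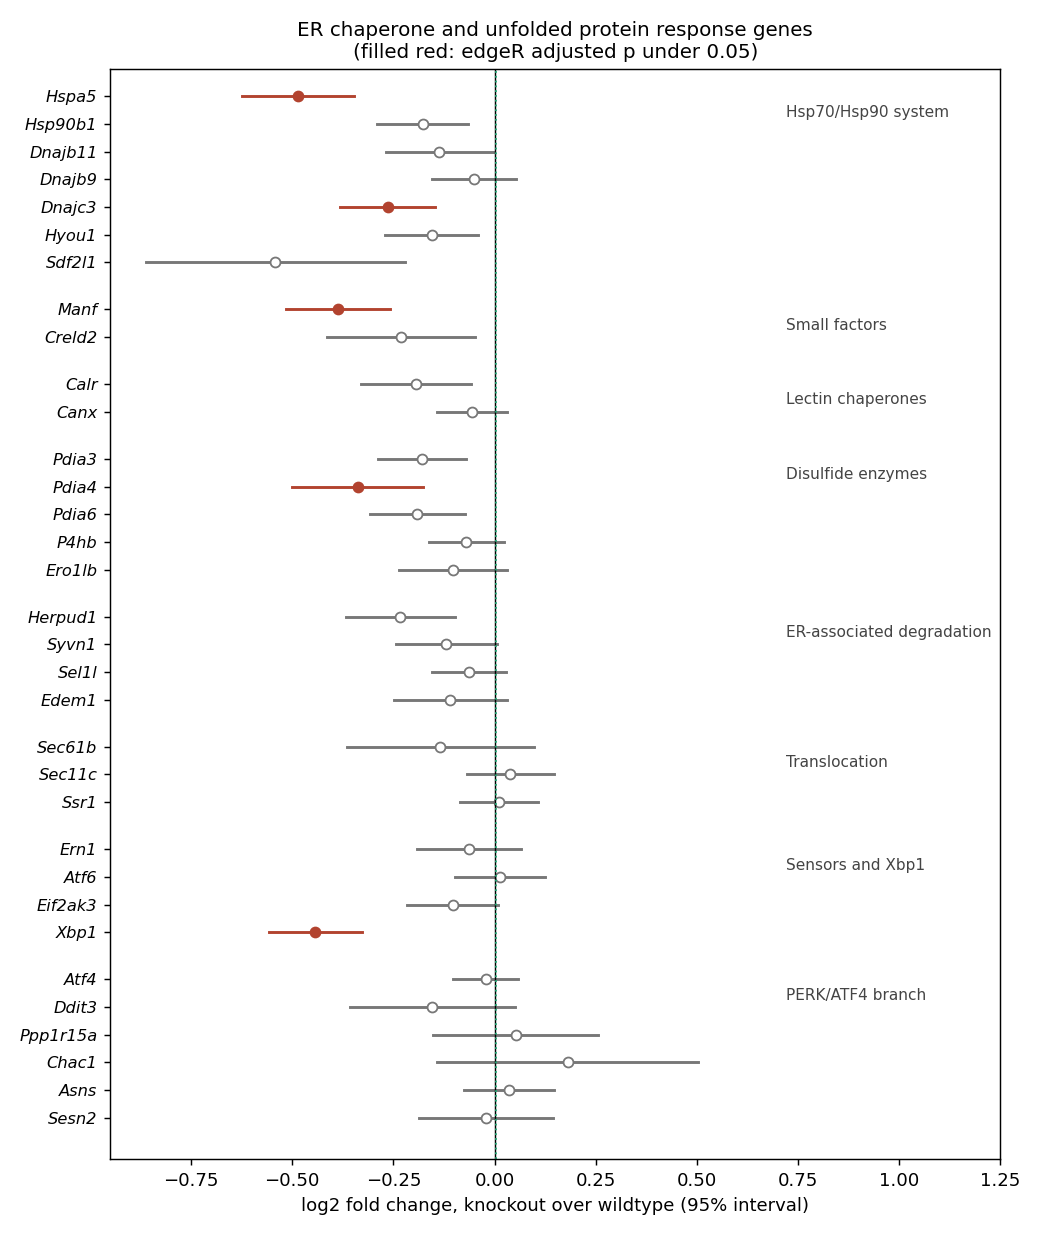
Log2 fold change of each of the 33 tested genes in knockout over wildtype brains (points, edgeR) with its 95% interval (lines), grouped by role from top to bottom. Filled red points passed an adjusted p of 0.05, the solid vertical line is 0 and the dotted line is the median of all tested genes, 0.0042. The red points are Hspa5, Dnajc3, Manf, Pdia4 and Xbp1, and the PERK/ATF4 points lie on both sides of 0.

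Xbp1 had 81.6, 69.5, 70.2, 66.5 and 74.5 CPM in knockout replicates 1 to 5, against 97.6, 92.7, 99.2, 99.5 and 101.5 CPM in wildtype replicates 1 to 5. Every knockout library lay below every wildtype library, and knockout replicate 1 was the closest to wildtype. The group levels were 72.5 ± 5.86 CPM in knockout and 98.1 ± 3.32 CPM in wildtype (SD, n = 5 each), a log2 fold change of -0.44 (SE 0.054, 95% interval -0.56 to -0.33, edgeR adjusted p 0.000515). A gene-level count holds the spliced and unspliced Xbp1 mRNA together, so the share of the active form is not known from it. The table places Xbp1 on chromosome 11 at 5420662 to 5425896 and names no genome build.

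None of the sensor genes upstream of these targets passed the test. Ern1, which encodes IRE1, averaged 23.2 ± 1.204 CPM in knockout and 24.3 ± 1.22 CPM in wildtype brains (log2 fold change -0.063, edgeR adjusted p 0.668). Atf6 averaged 87.7 ± 5.35 CPM in knockout and 86.7 ± 4.44 CPM in wildtype (0.013, adjusted p 0.946). Eif2ak3, which encodes PERK, averaged 36.9 ± 1.68 CPM in knockout and 39.7 ± 1.78 CPM in wildtype (-0.10, adjusted p 0.383). The groups overlapped for all 3, and their 95% intervals reached from -0.22 at the lowest (Eif2ak3) to 0.12 at the highest (Atf6) on the log2 scale. Sensor activity is set on the protein and is not measured by these counts.

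Hspa5, which encodes BiP, binds unfolded chains in the ER lumen and also holds the sensors inactive. It had 303.3, 301.3, 259.4, 249.1 and 260.9 CPM in knockout replicates 1 to 5, against 384.5, 340.3, 381.8, 405.8 and 411.3 CPM in wildtype replicates 1 to 5. The groups did not overlap, and knockout replicates 3, 4 and 5 were the lowest of all. Means were 274.8 ± 25.5 CPM in knockout and 384.7 ± 28.0 CPM in wildtype (SD, n = 5 each), a log2 fold change of -0.49 (SE 0.065, 95% interval -0.62 to -0.35, edgeR adjusted p 0.00128). Hspa5 had the ERSE shown above and the largest called reduction of the 34 genes.

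Dnajc3, which encodes the cochaperone p58IPK, had 84.3, 75.8, 69.1, 70.9 and 73.5 CPM in knockout replicates 1 to 5, against 86.8, 85.3, 92.6, 88.6 and 95.6 CPM in wildtype replicates 1 to 5. The groups were separate by a narrow margin, with 84.3 CPM in the highest knockout and 85.3 CPM in the lowest wildtype library. Its log2 fold change was -0.26 (SE 0.055, edgeR adjusted p 0.0304). The call was lost in 6 of 10 fits that left out 1 library, without knockout replicates 2, 4 or 5 or wildtype replicates 3, 4 or 5, with adjusted p-values over the 10 fits of 0.0117 to 0.0979.

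Hsp90b1, which encodes the ER Hsp90 paralog GRP94, had 302.4, 275.1, 255.0, 249.7 and 257.5 CPM in knockout replicates 1 to 5, against 293.9, 288.0, 306.8, 317.0 and 309.6 CPM in wildtype replicates 1 to 5. Knockout replicate 1 lay inside the wildtype range and the other knockout libraries below it. This was a log2 fold change of -0.18 (SE 0.053, edgeR adjusted p 0.131) for Hsp90b1, and without knockout replicate 1 it was -0.22 (adjusted p 0.0495). Its table interval overlaps that of 2 noncoding genes, and reads in the overlap cannot be parted by strand, which the kit named in the labels does not mark.

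Sdf2l1, a partner of Hspa5 and Dnajb11 in the lumen, had the largest fold change of the 33 tested genes and a wide error. Its levels were 9.03, 10.07, 6.86, 6.99 and 7.20 CPM in knockout replicates 1 to 5, against 15.4, 8.82, 11.4, 11.5 and 10.7 CPM in wildtype replicates 1 to 5. Wildtype replicate 2 lay within the knockout range, and wildtype replicate 1 was the highest of all. The fitted log2 fold change was -0.54 (SE 0.15, edgeR adjusted p 0.0993), and with every gene kept in the fit the adjusted p was 0.0423. Sdf2l1 and Dnajb11 lie near the targeted gene on chromosome 16. The table places Sdf2l1 at 17130231 to 17132476, Abcc5 at 20331376 to 20426467 and Dnajb11 at 22857918 to 22879707. For these 2 members, loss of Abcc5 and sequence carried along with the knockout allele cannot be told apart here.

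The other members of the Hsp70 system were not called. Dnajb11, a J-domain partner of Hspa5, Dnajb9, a J-domain protein that recruits Hspa5 to IRE1, and Hyou1, a large Hsp70 relative that exchanges nucleotide on Hspa5, had edgeR log2 fold changes of -0.14, -0.051 and -0.16 (adjusted p 0.326, 0.672 and 0.190). In this role 2 of 7 genes fell, against 0.964% of all tested genes, and 6 of 7 had an unadjusted p under 0.05 with a lower level in knockout, against 8.03%.

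Manf, an ER factor that is also secreted and protects dopamine neurons in rats, had 37.2, 40.6, 35.4, 36.05 and 37.4 CPM in knockout replicates 1 to 5, against 51.4, 45.8, 44.4, 49.7 and 52.9 CPM in wildtype replicates 1 to 5. No knockout library reached the lowest wildtype library. The means of 37.3 ± 2.03 CPM in knockout and 48.8 ± 3.63 CPM in wildtype (SD, n = 5 each) gave a log2 fold change of -0.39 (SE 0.061, edgeR adjusted p 0.00413). The table gives Manf an interval of 53668 bases that overlaps Vprbp and Rbm15b, so its counts may be affected by how reads in the overlap were assigned. Creld2, another secreted ER stress protein, had -0.23 (adjusted p 0.224).

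**Figure D2:**
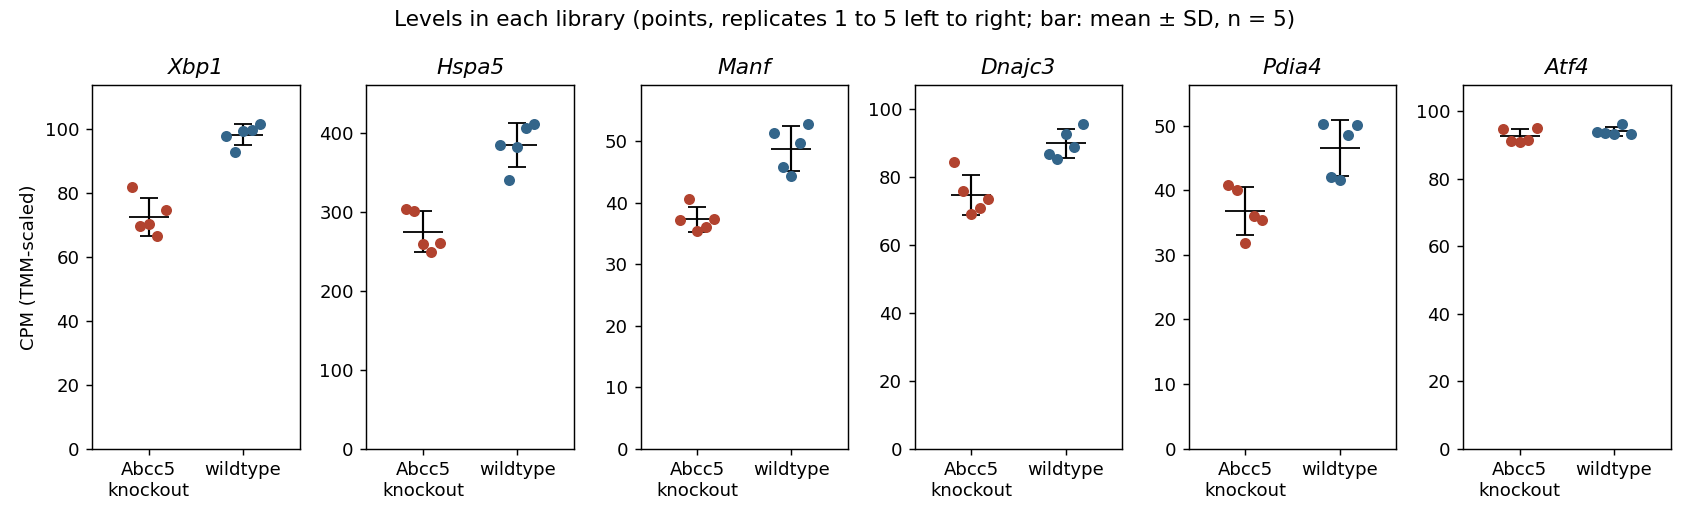
CPM of the 5 genes that fell and of Atf4 in each library (points, replicates 1 to 5 from left to right within a group), with the mean and SD of each group (n = 5). Axes start at 0. The knockout points lie below all wildtype points for Xbp1, Hspa5, Manf, Dnajc3 and Pdia4, and for Atf4 the groups overlap.

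The lectin chaperones, which hold newly made glycoproteins, did not pass the test. Calr, the soluble lectin, had 313.4, 300.8, 259.4, 262.8 and 249.3 CPM in knockout replicates 1 to 5, against 347.4, 302.0, 304.9, 316.7 and 314.8 CPM in wildtype replicates 1 to 5. Knockout replicates 2 to 5 lay below all wildtype libraries and knockout replicate 1 lay among them. For Calr the log2 fold change was -0.19 (SE 0.064, edgeR adjusted p 0.164), and a pseudogene named Calr-ps is annotated, whose reads could be mixed with it. Canx, the membrane-bound lectin, had 403.3, 379.9, 369.1, 358.0 and 372.5 CPM in knockout replicates 1 to 5, against 382.8, 382.7, 399.6, 401.9 and 390.3 CPM in wildtype replicates 1 to 5. Its groups overlapped through knockout replicate 1, and its log2 fold change was -0.056 (95% interval -0.14 to 0.030, adjusted p 0.552). Per kilobase of exon, the wildtype level was 110.1 ± 6.25 CPM for Calr, 91.0 ± 6.61 for Hspa5, 83.4 ± 1.93 for Canx, 75.2 ± 2.94 for Hsp90b1 and 71.4 ± 2.04 for Pdia3, the 5 highest of the 34 members. In knockout the order began with Calr at 96.2 and Canx at 80.2 CPM per kilobase, and Hsp90b1 at 66.5, Hspa5 at 65.0 and Pdia3 at 63.1 followed.

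Among the enzymes that form and shuffle disulfide bonds, Pdia4 fell. It had 40.8, 40.0, 31.8, 36.0 and 35.4 CPM in knockout replicates 1 to 5, against 50.3, 42.1, 41.7, 48.6 and 50.2 CPM in wildtype replicates 1 to 5. The groups did not overlap, although wildtype replicates 2 and 3 came within 2 CPM of the highest knockout library. Pdia4 had a log2 fold change of -0.34 (SE 0.076, edgeR adjusted p 0.0427). The call was lost without knockout replicates 2, 4 or 5 or wildtype replicates 1, 4 or 5 (adjusted p 0.0258 to 0.118 over the 10 fits) and with upper-quartile scaling (0.0558).

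Pdia3, which works with the lectins on glycoproteins, had 218.9, 201.2, 197.1, 177.1 and 195.8 CPM in knockout replicates 1 to 5, against 213.7, 223.7, 231.1, 225.5 and 226.2 CPM in wildtype replicates 1 to 5. Knockout replicate 1 was above the lowest wildtype library and the other knockout libraries were below it. Pdia3 had a log2 fold change of -0.18 (SE 0.051, edgeR adjusted p 0.115). Pdia6, another isomerase, had -0.19 (adjusted p 0.115). P4hb, the most studied isomerase, and Ero1lb, an oxidase that recharges these enzymes, had -0.070 and -0.10 (adjusted p 0.480 and 0.473).

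None of the 4 genes of ER-associated degradation, which sends misfolded proteins to the proteasome, was called by edgeR, DESeq2 or limma-voom, and 1 had an unadjusted p under 0.05 with a lower level in knockout, against 8.03% of all tested genes. That gene was Herpud1, an ER membrane protein of the degradation complex. It had 45.5, 50.5, 44.2, 50.7 and 43.9 CPM in knockout replicates 1 to 5, against 57.1, 49.1, 53.9, 59.2 and 58.5 CPM in wildtype replicates 1 to 5. Wildtype replicate 2 lay within the knockout range, and the other wildtype libraries lay above it. Herpud1 had a log2 fold change of -0.23 (SE 0.063, edgeR adjusted p 0.0924). Syvn1, the ubiquitin ligase HRD1, its partner Sel1l and the mannosidase-like Edem1 had -0.12, -0.064 and -0.11, with adjusted p-values of 0.361, 0.514 and 0.459. Of the translocation genes, Sec61b of the channel, Sec11c of the signal peptidase and Ssr1 of the translocon-associated complex had -0.13, 0.039 and 0.010 (adjusted p 0.604, 0.773 and 0.953). Sec11c and Ssr1 were the only ATF6/XBP1-type members above 0.

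No gene of the PERK branch passed the test, and its central member was measured closely. Atf4, the transcription factor of this branch, had 94.8, 91.2, 91.0, 91.6 and 95.1 CPM in knockout replicates 1 to 5, against 93.9, 93.6, 93.3, 96.3 and 93.5 CPM in wildtype replicates 1 to 5. The groups overlapped. The log2 fold change was -0.022 (SE 0.038, 95% interval -0.10 to 0.058, edgeR adjusted p 0.840), an interval that does not reach the reduction of any of the 5 genes that fell. ATF4 is controlled mainly at translation, which these counts do not measure.

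Ddit3, which encodes CHOP, a factor linked to cell death under lasting ER stress, had 24.5, 23.96, 21.5, 22.4 and 25.1 CPM in knockout replicates 1 to 5, against 32.97, 22.8, 25.2, 23.6 and 24.03 CPM in wildtype replicates 1 to 5. Wildtype replicate 1 was the highest of all, and the other wildtype libraries overlapped the knockout libraries. The log2 fold change was -0.15 (95% interval -0.36 to 0.051, edgeR adjusted p 0.478), and without single libraries it ran from -0.20 to -0.024. In the table Ddit3 overlaps Mars. The kit named in the labels does not mark strand, so reads in the overlap cannot be parted by strand. Pdia3, Pdia6, Syvn1 and Ppp1r15a likewise overlap the protein-coding genes Catsper2, Atp6v1c2, Mrpl49 and Tulp2. Herpud1 and Sesn2 overlap genes of the antisense class. In GENCODE vM21 the one over Herpud1 lies on the opposite strand and the one over Sesn2 on the same strand.

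The other genes of the branch had wide intervals at low levels. Ppp1r15a, a phosphatase subunit that reverses the PERK signal, and Chac1, an enzyme that degrades glutathione, had log2 fold changes of 0.052 (95% interval -0.15 to 0.26) and 0.18 (-0.14 to 0.50). Sesn2, a stress-induced regulator of growth signalling, had -0.021 (-0.19 to 0.14). Asns, the asparagine synthetase, was better measured, at 80.7 ± 4.45 CPM in knockout and 78.6 ± 4.28 CPM in wildtype (SD, n = 5 each), or 0.036 (-0.075 to 0.15). Their edgeR adjusted p-values were 0.619 to 0.944. Trib3, a pseudokinase induced by ATF4 and CHOP, was below the count filter, with 7, 22, 10, 28 and 5 counts in knockout replicates 1 to 5, against 13, 6, 6, 6 and 2 counts in wildtype replicates 1 to 5. These correspond to 0.986 ± 0.284 CPM in knockout and 0.557 ± 0.203 CPM in wildtype. With every gene kept in the fit Trib3 had a log2 fold change of 0.83 (unadjusted p 0.0124, edgeR adjusted p 0.293).

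**Figure D3:**
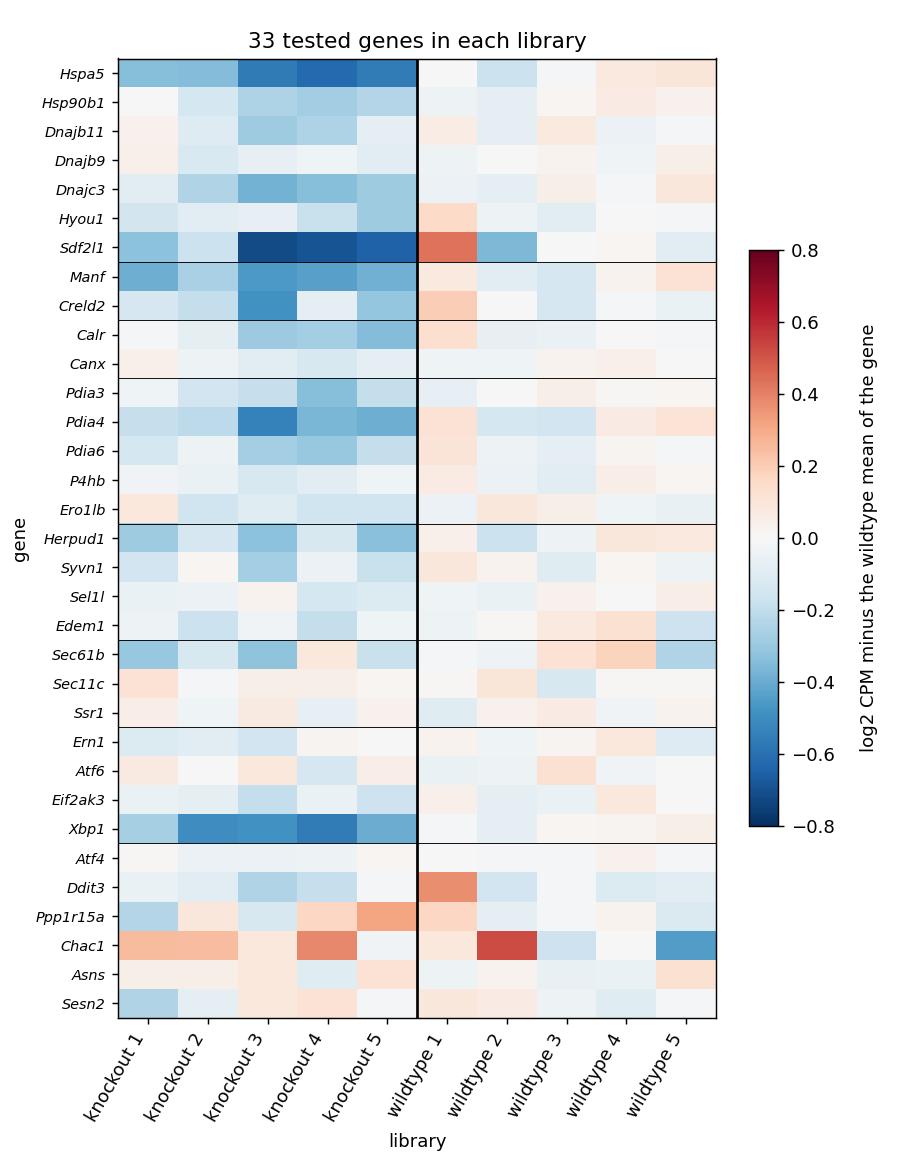
Log2 CPM of the 33 tested genes in each library (columns), minus the mean of the wildtype libraries for that gene, with blue for lower and red for higher levels and genes grouped by role between thin lines. The knockout columns are blue for most chaperone genes, most strongly in replicates 3, 4 and 5, and the PERK/ATF4 genes at the bottom show both colours in both groups.

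The knockout libraries differed among themselves in how far the chaperone genes were lowered. Averaged over the 24 ATF6/XBP1-type members, log2 CPM minus the wildtype mean was -0.11, -0.14, -0.26, -0.23 and -0.23 in knockout replicates 1 to 5, against 0.042, -0.055, -0.016, 0.027 and 0.0021 in wildtype replicates 1 to 5. Knockout replicate 1, a shallower library, was nearest to wildtype. Of the 24 genes, 11, 14, 19, 17 and 18 lay below the lowest wildtype library in knockout replicates 1 to 5, where 19.2% to 26.8% of all tested genes did. The same average over the 6 tested PERK/ATF4-type members ran from -0.037 to 0.064 in knockout and from -0.092 to 0.11 in wildtype, with full overlap.

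The comparison was repeated without single libraries and by depth. Without knockout replicate 3, the library that almost lacked cerebellar transcripts, all 5 genes were still called, with log2 fold changes of -0.46 for Hspa5, -0.44 for Xbp1, -0.37 for Manf, -0.24 for Dnajc3 and -0.30 for Pdia4. Hspa5, Xbp1 and Manf were called in each of the 10 fits that left out 1 library. In the 7 shallower libraries alone, where 0.214% of all genes were called, Hspa5 (log2 fold change -0.49, edgeR adjusted p 0.0205) and Xbp1 (-0.38, 0.0226) passed. Manf (-0.40, 0.0543), Dnajc3 (-0.26, 0.198) and Pdia4 (-0.34, 0.208) did not pass there. In the 3 deeper libraries, 2 knockout and 1 wildtype and so without a test, the log2 differences were -0.49 for Hspa5, -0.52 for Xbp1, -0.43 for Manf, -0.24 for Dnajc3 and -0.41 for Pdia4. DESeq2 and limma-voom called the same 5 members lower, where they called 1.58% and 1.06% of all genes they tested lower.

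**Figure D4:**
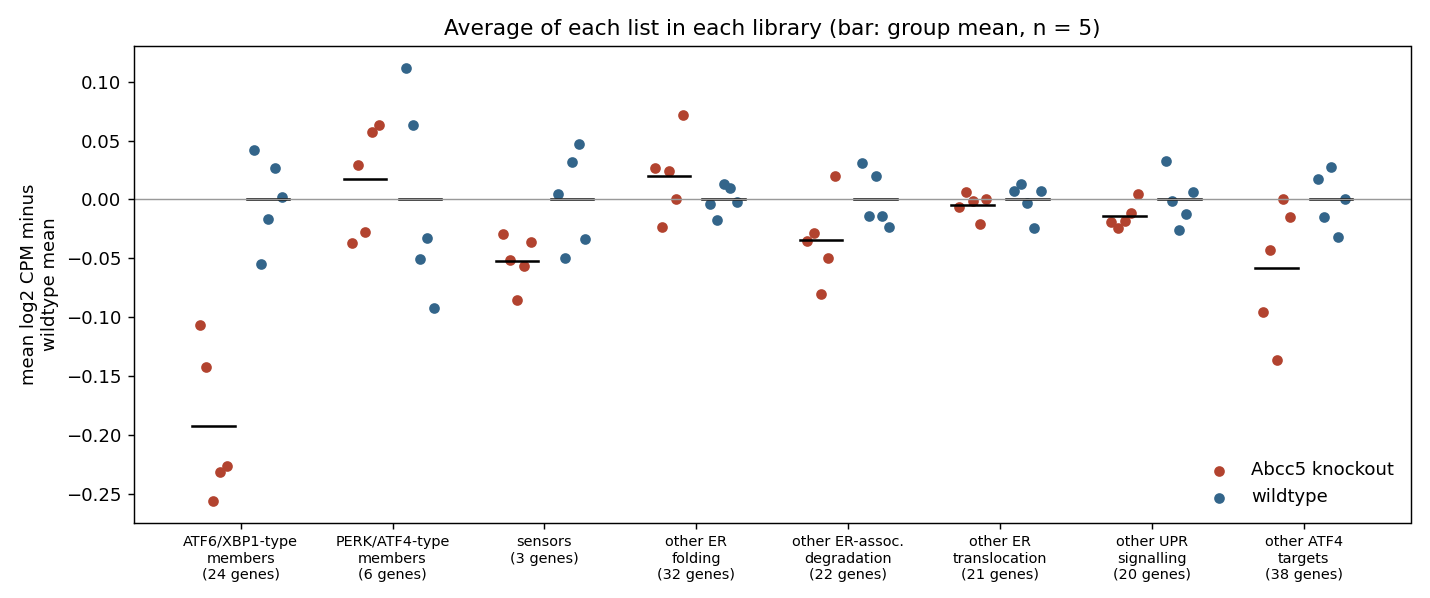
Mean over the genes of each list of log2 CPM minus the wildtype mean of each gene, in each library (points, knockout left of wildtype in each list, bars for the group means, n = 5). In the ATF6/XBP1-type list all 5 knockout points, -0.26 to -0.11, lie below all 5 wildtype points, -0.055 to 0.042. The points of the 2 groups overlap in each of the 7 other lists.

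Promoter letters and fold changes were set side by side. The 9 members with an ERSE in their window all had a log2 fold change below 0, against 48.4% of all tested genes. Their median was -0.19, and 2 of them fell, against 0.964% of all tested genes. Of the 12 ATF6/XBP1-type members with a window and no ERSE, 11 were likewise below 0. Their median was -0.14, and 2 of them fell, against the same 0.964%. Among these 12, Dnajb11 and Herpud1 held the shorter variant ERSE-II. An unadjusted p under 0.05 with a lower level in knockout was reached by 6 of the 9 and by 6 of the 12. Outside the members, 11 tested genes held an ERSE, with a median of 0.016, none called by edgeR and 1 of 11 lower at an unadjusted p under 0.05. The 11244 tested genes with a window and no ERSE had a median of 0.0043, and 7.98% of them were lower at an unadjusted p under 0.05. None of these differences was tested.

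The wider pathway was described from 5 further lists with 141 genes, of which 133 were tested. None was called by edgeR, against 1.18% of all tested genes, and at an unadjusted p under 0.05 there were 15 lower and 9 higher, against 8.03% and 6.74% of all tested genes. DESeq2 called 1, Slc7a1, a transporter of cationic amino acids (log2 fold change -0.21, DESeq2 adjusted p 0.0386, edgeR adjusted p 0.0856), and limma-voom called none. The median over the 133 genes was 0.0001. Other folding factors, 32 genes, had a median of 0.017, and their most abundant members, the thioredoxin-like Tmx4 and the calcium-binding Sdf4, had log2 fold changes of 0.032 and 0.082. Other degradation factors, 22 tested, had a median of -0.014, with the abundant lectin Os9 at 0.036. Other translocation factors, 21 tested, had a median of -0.0002, with Sec62 at -0.071 and Ssr3 at 0.013.

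Other signalling genes of the response, 20 tested, had a median of 0.0023, and the abundant Tmbim6, an ER membrane inhibitor of cell death, and the cochaperone Dnajc7 had log2 fold changes of 0.075 and 0.010. Other ATF4 targets and partners, 38 tested, had a median of -0.0032, with the tRNA synthetases Nars and Aars at 0.014 and 0.029. At an unadjusted p under 0.05, 5 of these 38 were lower and 1 higher, against 8.03% and 6.74% of all tested genes. Lower without overlap were 2 of the 38, or 5.26%, against 2.64% of all tested genes. The edgeR adjusted p-values of the 9 abundant genes named from the wider lists were 0.371 to 0.952.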

How the data were processed

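RNA from 5 Abcc5 knockout and 5 wildtype whole brains was sequenced as polyadenylated RNA, per the labels' protocols. The values used were raw counts per gene deposited by the authors for 25050 genes. The submitters' processing notes name TopHat2 2.0.6, TopHat, HTSeq, edgeR and limma, and the settings, genome build, annotation and strand of counting are not given in the sources used here. The kit named in the labels does not mark strand.

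The test was the quasi-likelihood test of edgeR 4.0.16 (R 4.3.3). filterByExpr (minimum count 10, minimum total 15) kept 14526 genes, TMM scaling gave factors of 0.982 to 1.01, genotype was the sole covariate, and p-values were adjusted by Benjamini-Hochberg over all tested genes. SEs came from the F statistic and 95% intervals from the SE. A prior count of 2 was added for log2 CPM. The biological coefficient of variation was 0.071, and replicates differed by more than counting error (chi-square per degree of freedom 1.29 to 12.1). The labels describe each library as a separate brain. Total counts of 940 or more per tested member, Chac1 (626) aside, set the counting precision. Exon lengths came from GENCODE vM21 and promoter windows from RefSeq (GRCm38.p6). The script was checked on simulated data.

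Alternatives were DESeq2 1.42.0 (size factors and Wald test), limma-voom (limma 3.58.1), upper-quartile scaling, other filters and thresholds, a replicate block, leaving out each library, and the 7 shallower libraries. The wider lists' alternatives and the values in the 3 deeper libraries were chosen after seeing the data. The members, lists and tests were chosen with earlier results of these data known. All 34 members are named, with every library's value for the called genes, the 3 nearest misses, Atf4, Ddit3, Hsp90b1, Calr and Canx, and, from each wider list, called genes and the 2 most abundant. The values of 1 gene of these lists are not reported here. Protein sequences were not analysed here.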

Additional observations from a re-analysis of the deposited data

Results flagged for a closer look

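In 68 sets of 5 libraries, each a gene in 1 group, 3 held a library set apart from the other 4 by more than Dixon's 95% critical value of 0.71, and chance gives about 1 in 20. Ero1lb had 29.8 CPM in knockout replicate 1, against 25.1 to 26.3 CPM in the other knockout libraries, a value that lies within the wildtype range. Atf4 had 96.3 CPM in wildtype replicate 4, against 93.3 to 93.9 CPM in the other wildtype libraries, a gap that is small against the level. Ddit3 had 32.97 CPM in wildtype replicate 1, against 22.8 to 25.2 CPM in the other wildtype libraries, and without that library its log2 fold change was -0.024.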

How the results depend on the processing

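Of the 34 members, 5 were past the threshold in all libraries, all of the ATF6/XBP1 type. Both counts were 3 at an adjusted p of 0.01, 2 in the 7 shallower libraries and 3 to 6 with 1 library left out. Over all tested genes 1.18% were called in the main fit and 0.214% in the 7 shallower libraries. Shares of all genes at the other thresholds and with 1 library left out are not given here. A loss of calls among the members there cannot be told from a general loss. They were 3 without knockout replicates 2, 4 or 5 or wildtype replicates 4 or 5, each time Hspa5, Manf and Xbp1. The other scalings, filters and tools moved them by less than 1.5 times, and no PERK/ATF4-type member passed under any alternative run. The medians of both lists moved by less than the spread between replicates. The wider lists, with 0 called, had 1 by DESeq2, 2 at an adjusted p of 0.1, and 0 to 1 with 1 library left out, which was Slc7a1 without knockout replicate 3 and Edem3 without knockout replicate 5. The sign changed with 1 library left out for genes near 0, namely Sesn2 (-0.070 to 0.023), Ssr1 (-0.015 to 0.030), Atf6 (-0.0039 to 0.053) and Ppp1r15a (-0.0034 to 0.11). The cause of these changes was not tested. Libraries that share a replicate number had correlations of -0.35 to 0.22 over 5000 genes, and 2 of 5 numbers were their own best partner. So few values cannot settle whether the numbers mark pairs, and the main fit did not use them as pairs. With the replicate block 3 members passed, among 90 of all tested genes, and Dnajc3 (edgeR adjusted p 0.0845) and Pdia4 (0.0509) did not. Depth limits low genes most, since Trib3, Chac1, Sec61b and Sdf2l1 rest on the fewest counts.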

Other observations

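A few genes of the wider lists had groups that did not overlap and were not called by edgeR, and they are named here after their values were seen. The chaperone-like genes Cnpy3 and Serp2 were higher in all knockout libraries, at 51.3 ± 1.96 CPM in knockout and 45.6 ± 2.35 CPM in wildtype for Cnpy3 (SD, n = 5 each, edgeR adjusted p 0.115), and 36.7 ± 2.00 CPM in knockout and 31.9 ± 2.10 CPM in wildtype for Serp2 (adjusted p 0.139). Sec61a1, the pore of the translocation channel, and Dnajc1, a J-domain protein of the ER membrane, were lower in all knockout libraries, with log2 fold changes of -0.14 and -0.18 (adjusted p 0.147 and 0.144). So were Herpud2 of the degradation list and Ppp1r15b of the signalling list, at -0.13 and -0.15 (edgeR adjusted p 0.266 and 0.167). The list of other ATF4 targets and partners held 2 more. Lower without overlap were 6 of the 133 genes, or 4.51%, against 2.64% of all tested genes, and higher without overlap were 2 of the 133, Cnpy3 and Serp2, where 1.54% of all tested genes were.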
